A study of Mus musculus with 3 samples.

Results

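The array of the gp130 KO cells was set against the array of the LIFR KO cells, gene by gene, in a series of 3 single-colour Agilent expression arrays of mouse cells labelled as embryonic stem cells (mESCs). The arrays were chosen by their genotype labels and make up 2 of the 3 arrays, and the third, of wildtype cells, is given beside them. Of 20659 genes with a name, 13114 were well above background on both knockout arrays and outside a patch of stray signal, and these genes were compared. Another 1582 genes were well above background on 1 of the 2 arrays, and 5963 were on neither or had their spots left out.

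All 3 groups were mESCs kept in standard culture, per the labels, and differed in genotype, which was wildtype, LIFR KO or gp130 KO. The sources used here do not give the strain, the clone, the way each gene was disrupted or whether LIF was in the medium. Each group was 1 array, so every difference is one between 2 arrays, no test could be run, and a difference between genotypes cannot be told apart from one between cultures or arrays. In RNA from a whole culture, fewer cells of a type and less RNA per cell cannot be told apart either.

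LIF is a cytokine that keeps mouse embryonic stem cells from differentiating. It binds LIFR, which then pairs with gp130, the product of Il6st, and the kinases bound to both chains activate the transcription factor STAT3, the ERK kinases and the PI3 kinase pathway. LIFR serves LIF and a few related ligands, whereas gp130 is also the signalling chain for IL-6, IL-11, oncostatin M and other members of the family. A comparison of the knockouts therefore asks what differs between the loss of the chain that serves LIF and a few related ligands and the loss of the chain that the whole family shares.

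The signal of a gene is the background-subtracted brightness of its probe, scaled so that the 75th percentile of each array equals 1000. It serves to compare the same probe between arrays and not one gene with another. The log2 ratio is that of the gp130 KO over the LIFR KO array, so a positive value means a higher signal on the gp130 KO array. Probes spotted 10 times and mostly well above background gave, at their median scatter, a 95% half-width of 0.14 for the log2 ratio of 2 spots, or 1.1-fold. The standard deviation of their spots had a median of 0.05 on each knockout array. Its 90th percentile was 0.13 on the LIFR KO and 0.21 on the gp130 KO array, so the half-width is too narrow for the more scattered probes. The median scanner error of a log2 ratio was 0.20. Neither the half-width nor the scanner error covers the scatter between cultures, and it is the number of arrays that limits precision.

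The LIFR KO array stood apart in 2 ways. A smaller share of its probes was well above background, 57.7% against 64.0% on the wildtype and 65.1% on the gp130 KO array, and local background reached 25884 in a patch of 249 spots, against highest values of 57 and 51 on the other arrays. With these spots left out 62 genes were lost, 18 of which would have been at least 2-fold lower on the gp130 KO array and 0 at least 2-fold higher. The labelled cell type was only partly borne out by its markers. Of 12 embryonic stem cell markers, 8 were well above background on both knockout arrays, while Sox2, Zfp42, Dppa3 and Fgf4 were on none of the 3 arrays. Pou5f1, 1 of the 8, was dim, at 46.9 on the wildtype, 30.3 on the LIFR KO and 31.2 on the gp130 KO array. The summed signal of these 12 markers was 3361, 2706 and 3659 on the wildtype, LIFR KO and gp130 KO arrays. All 12 epithelial markers were well above background on each array, with sums of 119512, 126640 and 124538. Of 11 fibroblast markers, which would show feeder cells, 6 were well above background on both knockout arrays, with sums of 113364, 120423 and 132024 over all 11, most of it Vim, while Pdgfrb and Lum were on none.

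The knockouts could not be told apart by the probes of Lifr and Il6st. The measured Lifr probe gave 53.3 on the gp130 KO and 40.0 on the LIFR KO array, a log2 ratio of 0.41 with a scanner error of 0.28, and 52.5 on the wildtype array. For Il6st the signals were 459 and 492, with 495 on the wildtype array, and the log2 ratio was -0.10. Whether these probes lie in the disrupted parts is not known here, so they check nothing, and the genotypes are taken from the labels alone.

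The arrays of the knockouts were alike for most genes and differed by 2-fold or more for few. On the gp130 KO array 123 genes (0.938%) were at least 2-fold higher and 162 genes (1.24%) at least 2-fold lower than on the LIFR KO array. The median log2 ratio of all 13114 genes was 0.05, the 5th and 95th percentiles were -0.50 and 0.57, and 91.6% of genes differed by less than 1.5-fold. Of the lists described here, 6 of 18 immediate early genes, 4 of 18 clock genes and 4 of 11 BMP and ID genes were at least 2-fold lower, among them Fos, Per1 and Id1. On the higher side were Myc, 9 of 36 clustered histone genes and 16 of 300 genes named Zfp and a number. Of the 162 lower genes 43 (26.5%) belonged to at least 1 of 42 gene lists, against 3 of the 123 higher genes (2.44%) and 5.55% of all genes compared. The lists were chosen with earlier results of these arrays known, so these shares describe the lists.

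**Figure D1:**
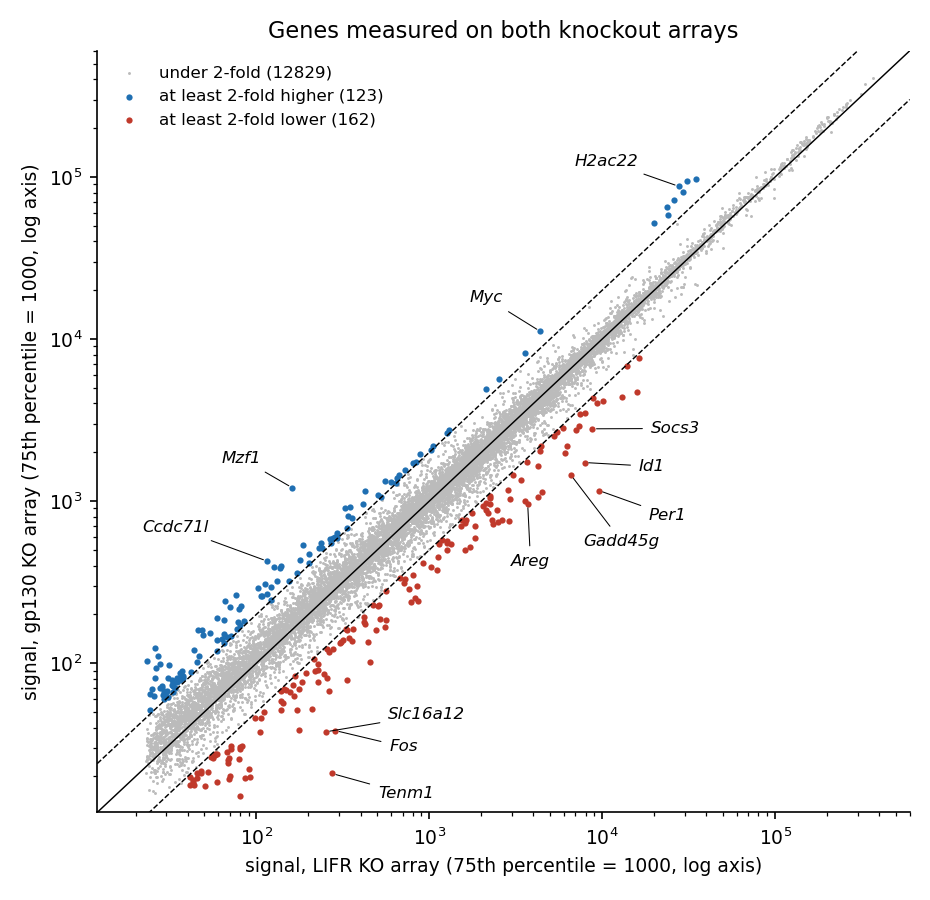
Signal on the LIFR KO array (horizontal) and on the gp130 KO array (vertical), scaled to a 75th percentile of 1000, both on log axes, for the 13114 genes measured on both. The solid line marks equal signal and the dashed lines 2-fold, with 123 genes above (blue) and 162 below (red), and a separate group of bright blue points at the upper right holds H2A histone genes.

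Many of the genes past 2-fold were dim on the array where they were lower. Of the 123 higher genes 61 (49.6%) had a signal under 100 on the LIFR KO array, against 17.7% of all genes, and of the 162 lower genes 64 (39.5%) were under 100 on the gp130 KO array, against 16.5%. Choosing genes as lower on an array by itself makes them dimmer there. On the array where they were brighter, 33 of the higher genes (26.8%, gp130 KO) and 34 of the lower genes (21.0%, LIFR KO) were under 100. With another background correction (normexp, fitted to the raw spot and its surroundings) 34 genes were higher and 76 lower, and 34 and 75 genes were past 2-fold the same way in the main values, with normexp and in the authors' own table. The 12 largest differences each way named here were taken from those genes.

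Tenm1, the gene of a teneurin, a large membrane protein of developing neurons, had the largest ratio of all genes in the main values. Its signal was 20.9 on the gp130 KO array, 274 on the LIFR KO array and 102 on the wildtype array, which is 13.1-fold lower in the first than in the second, at a log2 ratio of -3.71. With normexp this ratio was -1.77, smaller than that of Per1, at -2.89. Slc16a12, of the monocarboxylate transporter family, gave 37.7, 251 and 238 in the same order, so that the gp130 KO array was the low one and the others were alike. Its log2 ratio was -2.74, or -1.32 with normexp, and Tenm1 and Slc16a12 are both dim on the gp130 KO array. Arid3a, a gene of a DNA-binding factor, gave 102, 456 and 122, a log2 ratio of -2.16, or -1.5 with normexp, with the LIFR KO array alone high.

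The LIFR KO array was also the high one for most other genes of this group. Hyal1, the gene of a hyaluronidase, gave 78.5 on the gp130 KO, 333 on the LIFR KO and 58.6 on the wildtype array, a log2 ratio of -2.08, or -1.23 with normexp. For Snai1, a repressor that drives the change from epithelial to mesenchymal cells, the signals were 1060, 4248 and 995, a log2 ratio of -2.0. Ss18l1, of a family of chromatin remodelling subunits, had a log2 ratio of -2.01, and the olfactory receptor gene Olfr1043 of -1.96, or -1.08 and -1.16 with normexp. On both, wildtype lay near the gp130 KO array, at 54.4 against 52.0 for Ss18l1 and at 77.0 against 67.6 for Olfr1043.

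On the higher side Mzf1, a zinc finger transcription factor of the myeloid lineage, stood first. Its signal was 1207 on the gp130 KO array, 161 on the LIFR KO array and 282 on the wildtype array, a 7.47-fold difference between the knockouts at a log2 ratio of 2.90. Ccdc71l followed with 426, 116 and 444, a log2 ratio of 1.88, or 1.29 with normexp, and here the LIFR KO array was the low one. Trim65, the gene of a ubiquitin ligase, gave 265, 76.1 and 206, a log2 ratio of 1.80, or 1.02 with normexp. Lcmt2, of an enzyme that modifies transfer RNA, gave 391, 127 and 332, a log2 ratio of 1.62. The other 8 of the 12 were the H2A histone genes H2ac22, H2ac11, H2ac15 and H2ac12 and the zinc finger genes Zfp873, Zfp429, Zfp54 and Zfp433.

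**Figure D2:**
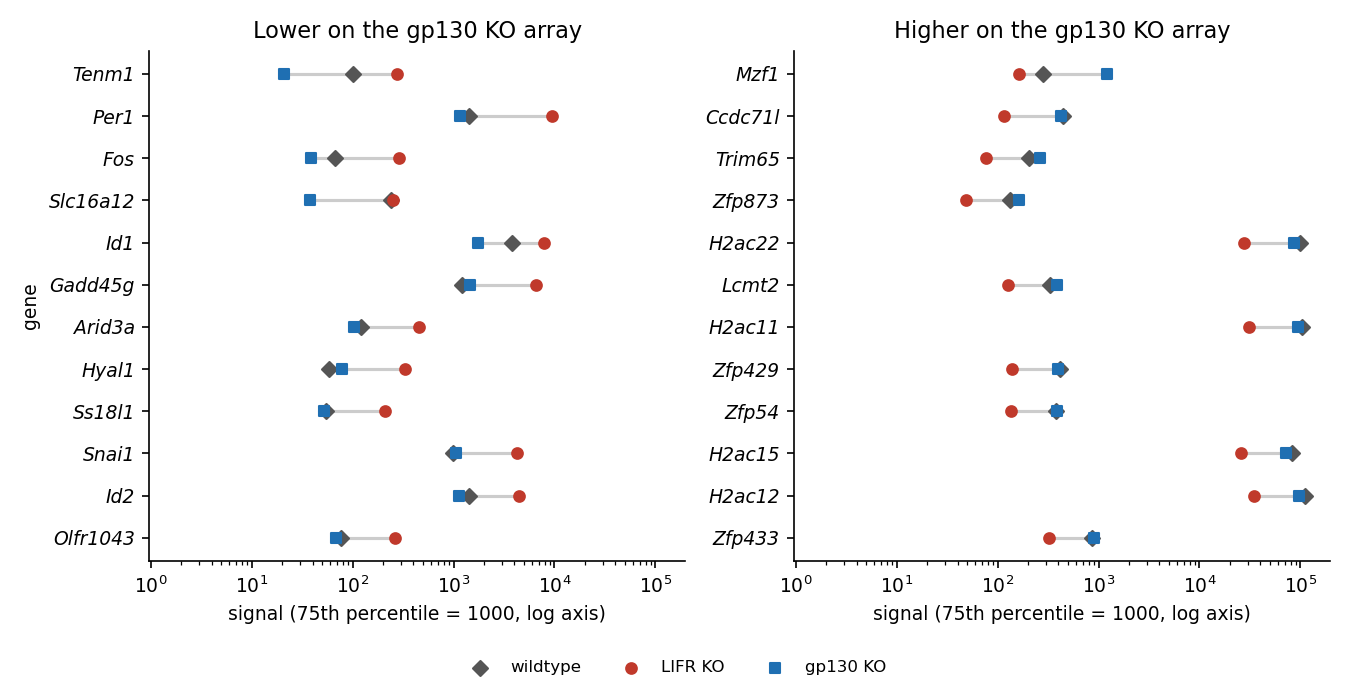
Signal (log axis, 75th percentile of each array at 1000) of the 12 genes each way with the largest ratios that were also past 2-fold with normexp and in the authors' table, on the wildtype (grey diamonds), LIFR KO (red circles) and gp130 KO (blue squares) arrays. Each symbol is 1 array, and the wildtype diamond lies nearer the blue square for 20 of the 24 genes and nearer the red circle for Tenm1, Slc16a12, Id1 and Mzf1.

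Genes seen on 1 of the knockout arrays give a bound, the bright value over the higher of the dim one and the lowest spot well above background on that array, 22.3 for LIFR KO and 14.8 for gp130 KO. On the LIFR KO array alone were 122 genes, 89 of them at least 2-fold brighter by this bound. They were led by Hhla1 at 107, which was at least 7.21-fold higher than on the gp130 KO array, Npffr1, of a neuropeptide receptor, at least 5.29-fold, Anks1b at least 5.01-fold and Olfr1499 at least 4.62-fold. The wildtype array was not well above background for any of these 4. On the gp130 KO array alone were 1460 genes, of which only 67 reached 2-fold, led by Zfp759 at 122 and at least 5.50-fold higher than on the LIFR KO array, Tmc1, of an ion channel of inner ear hair cells, at least 5.13-fold, Klhl34 at least 5.12-fold and Spaca9 at least 4.90-fold. The wildtype array was well above background for Zfp759, at 29.4, and Spaca9, at 77.5, and not for Tmc1 and Klhl34.

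The ligands and receptors of the gp130 family differed little, with Lif as the member past 2-fold. Lif gave 319 on the gp130 KO, 155 on the LIFR KO and 1036 on the wildtype array, a log2 ratio of 1.05 between the knockouts, and both knockout arrays lay below wildtype. This ratio was 0.99 with median scaling and in the authors' table and 0.73 with normexp, under 2-fold, and just under 2-fold with quantile normalization. Clcf1, of a ligand that signals through gp130 and LIFR, gave 177, 93.5 and 279, a log2 ratio of 0.92. Of 15 genes in the list 11 were measured, with a median log2 ratio of 0.21, and the other receptor genes were nearly level, with Il6ra at 0.28, Il11ra1 at 0.21 and Osmr, the oncostatin M receptor gene, at -0.40. The ligand gene Il11 gave 756 and 699 on the gp130 KO and LIFR KO arrays, a log2 ratio of 0.11.

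Downstream of the receptors, none of 23 measured genes of JAK-STAT components was past 2-fold, and few of all genes were (1.24% lower and 0.938% higher). The median log2 ratio of the list was -0.01. This list holds Socs1 and Socs2 but not the feedback genes Socs3 and Cish, at -1.65 and -1.72, which were counted among the LIF and STAT3 targets. The kinase genes Jak1 and Jak2 had 0.03 and -0.09, Stat5b 0.16 and Ptpn11, of the phosphatase SHP2, 0.03. Stat3 itself gave 2257 on the gp130 KO, 3181 on the LIFR KO and 2436 on the wildtype array, a log2 ratio of -0.50. The largest difference of the list was that of the phosphatase gene Ptpn1, at -0.74.

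Targets of LIF and STAT3 included genes past 2-fold in both directions. Of 25 genes in the list 21 were measured, and 5 were at least 2-fold lower and 1 at least 2-fold higher, at a median of -0.20. The lower genes were Fos, Cish, Socs3, Junb and Pim1, at log2 ratios from -2.89 for Fos to -1.03 for Pim1. Fos and Junb are also counted among the immediate early genes. Of all genes compared, 1.24% were at least 2-fold lower and 0.938% higher. Socs3, which shuts off the receptor as feedback, gave 2792 on the gp130 KO, 8765 on the LIFR KO and 3396 on the wildtype array, a 3.14-fold difference at a log2 ratio of -1.65. Cish, another feedback inhibitor of cytokine receptors, gave 168, 555 and 342, a log2 ratio of -1.72, with wildtype between the knockouts. For Socs3 the LIFR KO array was the high one and wildtype lay near the gp130 KO array.

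Pim1, a survival kinase gene that STAT3 induces, gave 106 on the gp130 KO, 217 on the LIFR KO and 65.1 on the wildtype array, a log2 ratio of -1.03. Myc went the other way, with 11128, 4385 and 15524, 2.54-fold higher on the gp130 KO than on the LIFR KO array at a log2 ratio of 1.34. The LIFR KO array was the low one for Myc. Cebpd, a STAT3 target and acute phase regulator, gave 1731, 894 and 3599, a log2 ratio of 0.95. The brightest member, Cebpb, was at -0.20, and the pluripotency factor genes Klf4 and Tfcp2l1, which LIF maintains, were at -0.22 and 0.18. The other probe of Tfcp2l1 gave -0.56, so its direction depends on the probe.

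Immediate early genes are those that cells switch on within minutes of a stimulus without new protein synthesis. In the main values their list had the largest number of lower members of any list. That number includes Atf3 and Nr4a1, whose spots a stricter limit on local background left out. Of 18 measured members 6 were at least 2-fold lower on the gp130 KO array, against 1.24% of all genes compared. None was higher, and the median log2 ratio was -0.29. Fos, a subunit of the AP-1 transcription factor, gave 38.4 on the gp130 KO, 285 on the LIFR KO and 66.7 on the wildtype array, a 7.41-fold difference at a log2 ratio of -2.89. It is dim on the gp130 KO array, and with normexp the ratio was -1.43. Fosb, a relative of Fos, gave 187, 519 and 253, a log2 ratio of -1.47. On both the LIFR KO array was at least 2-fold above each of the other arrays.

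Mafk, a small partner of bZIP factors, gave 760 on the gp130 KO, 2643 on the LIFR KO and 1012 on the wildtype array, a log2 ratio of -1.80. Junb, another AP-1 subunit, gave 877, 2119 and 869, a log2 ratio of -1.27. For these genes too the LIFR KO array was the high one. The stress factor gene Atf3 gave 329, 726 and 598 and the nuclear receptor gene Nr4a1 928, 2050 and 1612, both at a log2 ratio of -1.14, and here wildtype lay nearer the LIFR KO array. Atf3 was at -0.90 with normexp, and Atf3 and Nr4a1 lay in spots that a stricter limit on local background left out.

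Not all genes of this kind were lower. Egr1, a zinc finger factor induced by ERK signalling, gave 239 on the gp130 KO, 146 on the LIFR KO and 657 on the wildtype array, a log2 ratio of 0.71. Jun and Fosl1, further AP-1 subunits, were at 0.44 and 0.40, and their LIFR KO signals of 1756 and 1529 were the lowest of the 3 arrays. The bright Jund was at -0.13.

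The promoters of the 3 lowest members of this list, and of Lif and Id4, each the 1 gene at least 2-fold higher in its list, are shown as examples of the windows in which motifs were counted on either side. Myc, also the 1 higher gene of its lists, had no promoter among the sequences used. The windows are RefSeq sequences of GRCm38.p6, the 250 bases before the annotated start, 5′ to 3′ on the gene's strand, with every match to 1 of 7 searched motifs in capitals. Fos lies at chr12:85473640-85473889 on the plus strand, Mafk at chr5:139791286-139791535 plus, Fosb at chr7:19310046-19310295 minus, Lif at chr11:4257318-4257567 plus and Id4 at chr13:48260866-48261115 plus. 
Fos: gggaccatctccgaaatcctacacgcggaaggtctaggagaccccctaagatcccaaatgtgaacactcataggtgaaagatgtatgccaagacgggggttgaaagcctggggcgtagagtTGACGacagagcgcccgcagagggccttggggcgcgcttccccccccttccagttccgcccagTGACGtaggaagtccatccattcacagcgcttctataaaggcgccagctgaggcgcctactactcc
Mafk: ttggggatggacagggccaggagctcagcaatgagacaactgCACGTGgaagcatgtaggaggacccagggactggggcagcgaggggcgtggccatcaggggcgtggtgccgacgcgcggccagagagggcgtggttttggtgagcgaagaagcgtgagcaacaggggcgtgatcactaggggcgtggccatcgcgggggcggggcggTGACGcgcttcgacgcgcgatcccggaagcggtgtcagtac
Fosb: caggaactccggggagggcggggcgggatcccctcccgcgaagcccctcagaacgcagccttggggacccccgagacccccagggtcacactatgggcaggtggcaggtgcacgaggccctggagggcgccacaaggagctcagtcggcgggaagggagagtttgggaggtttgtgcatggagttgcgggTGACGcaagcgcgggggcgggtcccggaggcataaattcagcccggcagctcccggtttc
Lif: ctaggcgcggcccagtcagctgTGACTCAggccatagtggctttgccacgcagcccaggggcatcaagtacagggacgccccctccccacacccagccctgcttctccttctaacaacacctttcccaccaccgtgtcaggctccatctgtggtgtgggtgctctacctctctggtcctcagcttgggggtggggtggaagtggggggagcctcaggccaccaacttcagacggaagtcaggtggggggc
Id4: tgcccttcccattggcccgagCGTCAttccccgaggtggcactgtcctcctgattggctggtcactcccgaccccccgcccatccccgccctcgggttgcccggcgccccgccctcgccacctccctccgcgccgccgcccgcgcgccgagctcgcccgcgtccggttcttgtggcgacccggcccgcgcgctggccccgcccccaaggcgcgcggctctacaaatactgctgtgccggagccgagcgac

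The motifs were searched on both strands and were the AP-1 site TGACTCA, the cyclic AMP response element (CRE) TGACGTCA, its core TGACG, which every CRE also holds, the E-box CACGTG of clock and MYC factors, the STAT site TTCNNNGAA, the NF-kB site GGGANNTCC and the forkhead site TGTTTAC. The Fos promoter held 2 CRE cores, those of Fosb and Id4 held 1 each, Mafk held 1 core and 1 E-box, and Lif held 1 AP-1 site. None of the 5 windows held the STAT site. A CRE core stood in 17.8% of all 32851 promoters of the table, an AP-1 site in 4.46%, an E-box in 6.02%, a CRE in 1.55%, a STAT site in 7.02%, an NF-kB site in 3.59% and a forkhead site in 3.17%.

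The CRE core was counted over the genes past 2-fold as well, by promoter, since some genes have several. Of 159 promoters of lower genes 58 (36.5%) held it, against 16 of 124 promoters of higher genes (12.9%) and 24.9% of the 13248 promoters of all genes compared. The full CRE stood in 8 promoters of lower genes (5.03%), those of Areg, Btg2, Dusp8, Hic2, Ormdl3, Ppp1r15a, Slc25a25 and Tspyl4, and in 1 of a higher gene, H2ac11, against 2.47% of all genes compared. By its other probe Hic2 was at 0.30, Dusp8 at -0.54 and Slc25a25 at -1.06, so the call of Hic2 and Dusp8 depends on the probe. The AP-1 site stood in 4.40% of promoters of lower and 8.87% of higher genes, against 3.65%. For the STAT site the shares were 5.03%, 6.45% and 5.99% in the same order, and for the E-box 9.43%, 2.42% and 8.05%. The NF-kB site stood in 3.77%, 4.84% and 4.48% and the forkhead site in 3.14%, 2.42% and 2.28%, each in 6 promoters or fewer of the lower and of the higher genes. The lists differ in base composition too, with a median GC content of 61.2% in promoters of lower genes, 54.0% of higher genes and 59.2% of all genes compared, and its part in these shares was not tested. A match is a run of letters and not a measured binding site.

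Of 18 measured genes of the circadian clock 4 were at least 2-fold lower on the gp130 KO array, against 1.24% of all genes compared. The other 14 were under 2-fold, and the median was -0.27. Below 0 lay 16 of the 18 (88.9%), against 39.8% of all genes compared. Per1, a repressor of the clock that is also induced quickly by cyclic AMP and glucocorticoids, gave 1162 on the gp130 KO, 9555 on the LIFR KO and 1412 on the wildtype array, an 8.22-fold difference at a log2 ratio of -3.04. Cry2, a partner of PER proteins in that repression, gave 749, 2894 and 674, a log2 ratio of -1.95. On both the LIFR KO array was far above the other arrays, which were alike.

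Per2 gave 58.3 on the gp130 KO, 138 on the LIFR KO and 46.0 on the wildtype array, a log2 ratio of -1.24, which was -0.53 with normexp. Ciart, of a clock repressor, gave 764, 1621 and 801, a log2 ratio of -1.09. The genes of the activators BMAL1 (Arntl) and CLOCK were nearly level, at -0.32 and -0.06, and the output factor genes Dbp and Tef at -0.21 and -0.07. The dimmer of 2 measured probes of Dbp gave -1.0, which is 2-fold lower. Nr1d1, which represses Arntl, was at -0.85. Of 17 glucocorticoid receptor targets, a list that shares Per1, 2 were lower, at a median of 0.01.

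The ID proteins, inhibitors of DNA binding, are induced by BMP signals in mouse embryonic stem cells and block neural differentiation. Of their 4 genes Id1 and Id2 were at least 2-fold lower on the gp130 KO array, Id3 was under 2-fold and Id4 was higher. Of 11 measured genes of the BMP and ID list 4 were at least 2-fold lower and 1 higher, at a median of -0.50. The shares over all genes compared were 1.24% lower and 0.938% higher. Id1 gave 1729 on the gp130 KO, 7906 on the LIFR KO and 3799 on the wildtype array, a 4.57-fold difference at a log2 ratio of -2.19, and the knockouts lay more than 2-fold to either side of wildtype. Id2 gave 1136, 4479 and 1407, a log2 ratio of -1.98, and the LIFR KO array alone was high.

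Id3 was at -0.50, and Id4 stood on the other side, with 148 on the gp130 KO, 71.2 on the LIFR KO and 122 on the wildtype array, a log2 ratio of 1.05, or 0.95 with quantile normalization, 0.94 in the authors' table and 0.51 with normexp. Smad7, a feedback inhibitor of BMP and TGF-beta receptors, gave 4354, 8803 and 4534, a log2 ratio of -1.02, or -0.99 with quantile normalization, under 2-fold. Hey1, a Notch and BMP target, was at -1.14, or -0.58 with normexp.

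Among TGF-beta and activin targets the collagen gene Col1a1 was lower. It gave 143 on the gp130 KO, 343 on the LIFR KO and 106 on the wildtype array, a log2 ratio of -1.27, or -0.90 with normexp. The ligand gene Nodal was at 0.09 and the connective tissue growth factor gene Ccn2 at -0.56. Plat, the gene of tissue plasminogen activator, was at -1.39, or -0.86 with normexp.

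Of 11 measured Wnt pathway genes 2 were at least 2-fold lower, against 1.24% of all genes compared. Both were genes of proteins that bind and inhibit GSK3. Frat1 gave 76.7 on the gp130 KO, 226 on the LIFR KO and 21.8 on the wildtype array, a log2 ratio of -1.56, and both knockouts were above wildtype. Frat2 gave 224, 503 and 168, a log2 ratio of -1.17. With normexp the ratios were -0.83 and -0.95, and with the mean of its probes Frat2 was at -0.71. The remaining members, among them Ccnd1 at 0.12 and Sox9 at 0.02, were under 2-fold, at a median of -0.05 for the list.

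The p53 targets act in growth arrest and cell death. Of 23 measured, 5 were at least 2-fold lower on the gp130 KO array, against 1.24% of all genes, and none higher. The median was -0.19, and 19 (82.6%) lay below 0, against 39.8% of all genes. Plk3, a stress kinase, gave 719 on the gp130 KO, 2330 on the LIFR KO and 1284 on the wildtype array, a log2 ratio of -1.70, with wildtype between the knockouts. Bbc3, the gene of the pro-apoptotic protein PUMA, gave 880, 2461 and 990.5, a log2 ratio of -1.48, with the LIFR KO array alone high. Cdkn1a, the gene of the cell cycle inhibitor p21, gave 334, 673 and 647, a log2 ratio of -1.01, and here the gp130 KO array was the low one.

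The other members past 2-fold were Btg2, an antiproliferative gene, at -1.12, and Trp53inp1 at -1.06, whose second probe gave 0.16 and whose mean over probes was -0.45. With normexp Cdkn1a, Btg2 and Trp53inp1 were at -0.85, -0.54 and -0.76, under 2-fold. Canonical p53 targets that were nearly level included Mdm2 at -0.09, Ccng1 at -0.09 and Bax at -0.19. Of the Gadd45 stress genes, Gadd45g gave 1451 on the gp130 KO, 6576 on the LIFR KO and 1204 on the wildtype array, a log2 ratio of -2.18. Gadd45b gave 4693, 15824 and 6111, a log2 ratio of -1.75, while Gadd45a was at -0.17.

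Of 26 measured FOXO targets and quiescence genes 2 were at least 2-fold lower, against 1.24% of all genes. The median was -0.24, and 19 (73.1%) lay below 0, against 39.8% of all genes. Bmf, a pro-apoptotic BCL2 family gene, gave 523 on the gp130 KO, 1713 on the LIFR KO and 147 on the wildtype array, a log2 ratio of -1.71, so that both knockouts were above wildtype and the LIFR KO array further. Ypel2 gave 62.7, 165 and 30.1, a log2 ratio of -1.40, or -0.67 with normexp, in the same order of arrays. Of 13 measured BCL2 family genes Bmf and Bbc3 were past 2-fold, and the survival genes Mcl1, Bcl2l1 and Bcl2 were at -0.05, -0.02 and 0.12, though another probe of Bcl2l1 gave -0.64.

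Among ERK feedback and growth factor response genes 2 of 22 were at least 2-fold lower and Myc higher, at a median of 0.05. The shares over all genes were 1.24% lower and 0.938% higher. Areg, the gene of amphiregulin, a ligand of the EGF receptor, gave 964 on the gp130 KO, 3704 on the LIFR KO and 2870 on the wildtype array, a log2 ratio of -1.94, and the gp130 KO array was the low one. Dusp5, a phosphatase that switches off ERK, gave 98.7, 228 and 240, a log2 ratio of -1.20, or -0.60 with normexp. The ERK phosphatase gene Dusp6 and the feedback gene Spry1 lay on the other side, at 0.66 and 0.87.

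Of 31 measured genes of the amino acid stress response under ATF4, 3 were at least 2-fold lower, against 1.24% of all genes. Chac1, which degrades glutathione, gave 2736 on the gp130 KO, 7083 on the LIFR KO and 6241 on the wildtype array, a log2 ratio of -1.37, with the gp130 KO array low. Ddit4, an inhibitor of the growth kinase mTOR, gave 7583, 16352 and 5777, a log2 ratio of -1.11, with the LIFR KO array high, and the third was Atf3. The rest of the response was under 2-fold, with Asns at -0.00 and Trib3 at -0.15, and the median was -0.00.

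**Figure D3:**
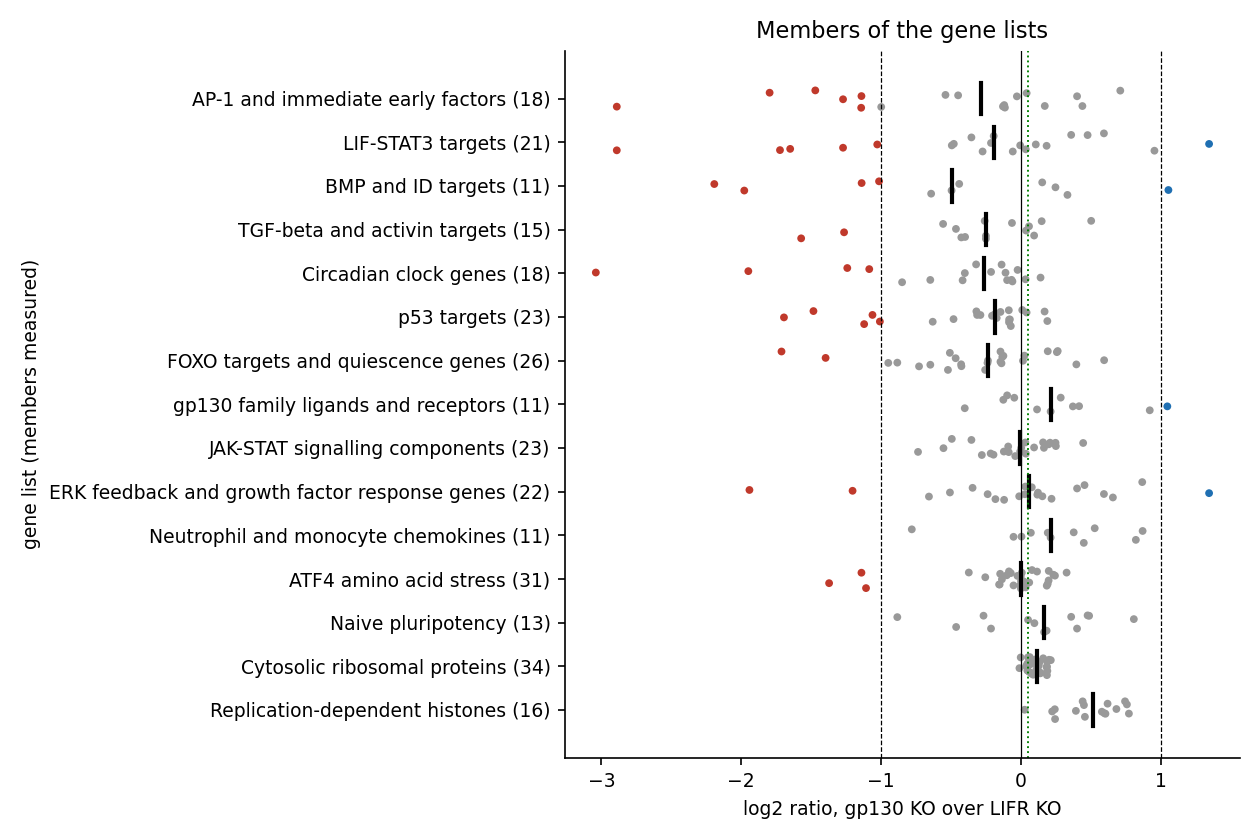
Log2 ratio of the gp130 KO over the LIFR KO array (horizontal) for each measured member of 15 gene lists (number measured in brackets). Points are genes, blue and red past 2-fold (dashed lines), black bars are list medians and the dotted green line is the median of all 13114 genes, 0.05. Red points lie on the left of the upper 7 lists and of the ERK feedback and ATF4 lists, while ribosomal protein genes lie within a narrow band.

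None of 11 measured neutrophil and monocyte chemokine genes was past 2-fold, and few of all genes were (1.24% lower and 0.938% higher). The median of the list was 0.21. Cxcl1 gave 1673 on the gp130 KO and 948 on the LIFR KO array, a log2 ratio of 0.82, against 13880 on the wildtype array, and Ccl2 gave 2328 and 1275, a log2 ratio of 0.87, against 7644. The bright Cxcl5 was at 0.45 and Ccl4 at 0.38. Of 15 colony-stimulating factor and interleukin genes the receptor gene Il17ra was lower, at -1.05, or -0.69 with normexp, and Csf3 was at 0.64. Of 19 NF-kB genes the inhibitor gene Nfkbie was lower, at -1.10, while Nfkbia was at 0.39 and Rela at 0.21.

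Pluripotency genes showed no member past 2-fold, where 1.24% of all genes were lower and 0.938% higher. Medians were 0.16 over 13 measured naive genes and 0.02 over 14 general ones. Nanog gave 505 on the gp130 KO, 289 on the LIFR KO and 475 on the wildtype array, a log2 ratio of 0.81. Klf2 gave 713, 1317 and 1119, a log2 ratio of -0.88, so these factors of the naive state lay on opposite sides. The brightest naive gene, Klf5, was at 0.36 and Zfp296 at -0.46. Quantile normalization set the naive median at 0.00. Among 30 measured genes of keratins and junctions the protease gene Prss8 was lower, at -1.14, but under 2-fold with normexp, at -0.98, and with the mean of its probes, at -0.96. The keratin gene Krt18 was at -0.09 and Cdh1 at -0.07.

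Housekeeping lists had medians near that of all genes. The 34 measured ribosomal protein genes had a median of 0.11 and the 24 oxidative phosphorylation genes of 0.04. Genes of DNA replication and of mitosis had medians of 0.10 and 0.05, cholesterol synthesis of -0.07, glycolysis of 0.02 and heat shock chaperones of -0.00. None of these 6 lists or of the ribosomal list had a member past 2-fold, where 1.24% of all genes were lower and 0.938% higher.

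Clustered histone genes, which make the core and linker proteins of newly replicated chromatin and were taken as a family after their values were seen, numbered 36 among the genes measured. Of these 9 (25.0%) were at least 2-fold higher, against 0.938% of all genes, and 7 of the 9 were H2A genes. The median was 0.59, and 35 of the 36 lay above 0, as did 7900 of all 13114 genes. Of 11 H2A genes 7 were past 2-fold, with ratios from 1.38 for H2ac19 to 1.65 for H2ac22, at a median of 1.45, and the same count of 7 was reached in every other setting.

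H2ac22 gave 87350 on the gp130 KO, 27771 on the LIFR KO and 100350 on the wildtype array. H2ac12 gave 96719, 34790 and 112430, a log2 ratio of 1.48. The LIFR KO array was the low one and the others were close. Probes of H2A genes can pick up the transcripts of near-identical copies, so these 7 values may not be 7 separate measurements. The 4 other H2A genes, H2ac1, H2ac4, H2ac8 and H2ac18, had 0.55, 0.77, 0.27 and 0.24.

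Of the other classes, 1 of 7 H2B genes was past 2-fold, H2bc14 with 1958 on the gp130 KO, 887 on the LIFR KO and 2931 on the wildtype array, a log2 ratio of 1.14. H3c13 was the member past 2-fold of 6 H3 genes, with 8206, 3584 and 10962, a log2 ratio of 1.20. None of 4 H1 or 8 H4 genes was, at medians of 0.45 and 0.49. The 16 measured genes of a list of histones written for this comparison, which holds none of the 7 H2A genes past 2-fold, all lay above 0 at a median of 0.52, or 0.37 with normexp, with H3c4 at 0.58 and H4c14 at 0.76, or 1.49 by its other probe.

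Zinc finger genes made up more of the higher genes than of all genes. Genes named Zfp and a number, many of which encode DNA-binding repressors with a KRAB domain and which were also taken as a family after their values were seen, were 2.29% of all genes compared and 13.0% of the higher ones. Of 300 measured, 16 (5.33%) were at least 2-fold higher and 2 lower, and the median was 0.20. Above 0 lay 211 of the 300 and 7900 of all 13114 genes. Zfp433 gave 900.0 on the gp130 KO, 325 on the LIFR KO and 853 on the wildtype array, a log2 ratio of 1.47, and Zfp429 gave 399, 139 and 418, a log2 ratio of 1.52. The LIFR KO array was the low one of both.

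Zfp54 gave 386 on the gp130 KO, 137 on the LIFR KO and 378 on the wildtype array, a log2 ratio of 1.5, and the dim Zfp873 gave 161, 48.5 and 131, a log2 ratio of 1.73, or 1.02 with normexp. With normexp 6 of the 300 were past 2-fold, at a median of 0.15. The lower members were Zfp36, whose product breaks down short-lived messages and is no KRAB protein, at -1.25, and Zfp974 at -1.5.

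**Figure D4:**
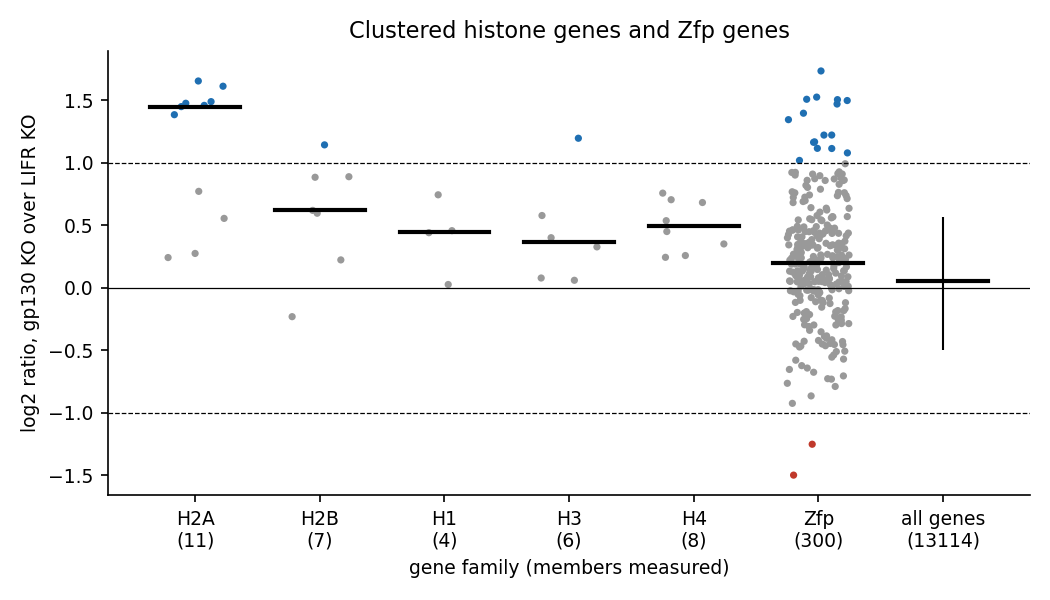
Log2 ratio of the gp130 KO over the LIFR KO array (vertical) for each measured clustered histone gene by class and for 300 genes named Zfp and a number. Points are genes, blue and red past 2-fold (dashed lines), black bars are medians, the vertical line for all 13114 genes spans the 5th to the 95th percentile, and 7 H2A genes lie together above the upper dashed line while most other histone genes lie between 0 and 1.

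A few other higher genes were picked after their values were seen. Mir17hg, the host gene of the miR-17-92 cluster and a target of MYC, gave 1160 on the gp130 KO, 423 on the LIFR KO and 1391 on the wildtype array, a log2 ratio of 1.45. Bmyc, a relative of Myc, gave 805, 340.0 and 1103, a log2 ratio of 1.24. Ankrd1, a target of the YAP growth pathway, gave 4928, 2126 and 8267, a log2 ratio of 1.21. In all 3 the LIFR KO array was the low one. Hoxa2, a homeobox gene of the hindbrain, gave 919, 349 and 447, a log2 ratio of 1.40, and was high on the gp130 KO array alone.

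The wildtype array was set beside both knockouts for the genes past 2-fold. It was well above background for 152 of the 162 lower and 122 of the 123 higher genes. Wildtype was nearer the gp130 KO array for 129 of the 152 lower (84.9%) and 103 of the 122 higher genes (84.4%), and for 62.1% of the 13065 genes compared that were measured on wildtype. Over the lower genes the median log2 ratio to wildtype was 1.36 on the LIFR KO and 0.01 on the gp130 KO array, and over the higher genes it was -1.03 and 0.15. Both ratios share the same wildtype array, and the genes were chosen by the ratio between the knockouts, so these values describe the genes and test nothing.

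Of all 13065 genes measured on wildtype, 407 were past 2-fold from it on the LIFR KO array and 114 on the gp130 KO array. The LIFR KO array thus lay past 2-fold from wildtype for more genes of any kind. The same totals were 112 and 19 for the 152 lower genes and 66 and 11 for the 122 higher genes. Split by array, 103 of the 152 lower genes were past 2-fold on the LIFR KO array alone, 10 on the gp130 KO array alone, 9 on both and 30 on neither. The 10 with the gp130 KO array alone were Slc16a12, Areg, Cish, F3, Chac1, Rnd1, Tnfsf15, Dusp5, Nipal1 and Dusp8. F3, the gene of tissue factor, which starts blood clotting, gave 596 on the gp130 KO, 1833 on the LIFR KO and 1499 on the wildtype array, a log2 ratio of -1.62. The LIFR KO and wildtype arrays were close.

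The 9 genes past 2-fold from wildtype on both arrays fell in 3 kinds. Bmf, Frat1, Ypel2, Trp53inp1 and Grhl3 were above wildtype on both and higher on the LIFR KO array. Rgs16, a brake on G protein signals, was below wildtype on both, with 701 on the gp130 KO, 1515 on the LIFR KO and 4209 on the wildtype array, a log2 ratio of -1.11 between the knockouts and of -0.99 with normexp. Tenm1, Id1 and Nol4l lay on opposite sides of wildtype.

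Of the 122 higher genes 65 were past 2-fold from wildtype on the LIFR KO array alone, 10 on the gp130 KO array alone, 1, Lif, on both and 46 on neither. The 10 were Mzf1, Dmkn, Foxr1, Septin4, Dnah17, Hoxa2, Olfr1148, Gstp3, Ccdc88b and Asb4, most of them dim. Dmkn had a log2 ratio of 2.25 from 1 probe and of 0.12 from the other.

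**Figure D5:**
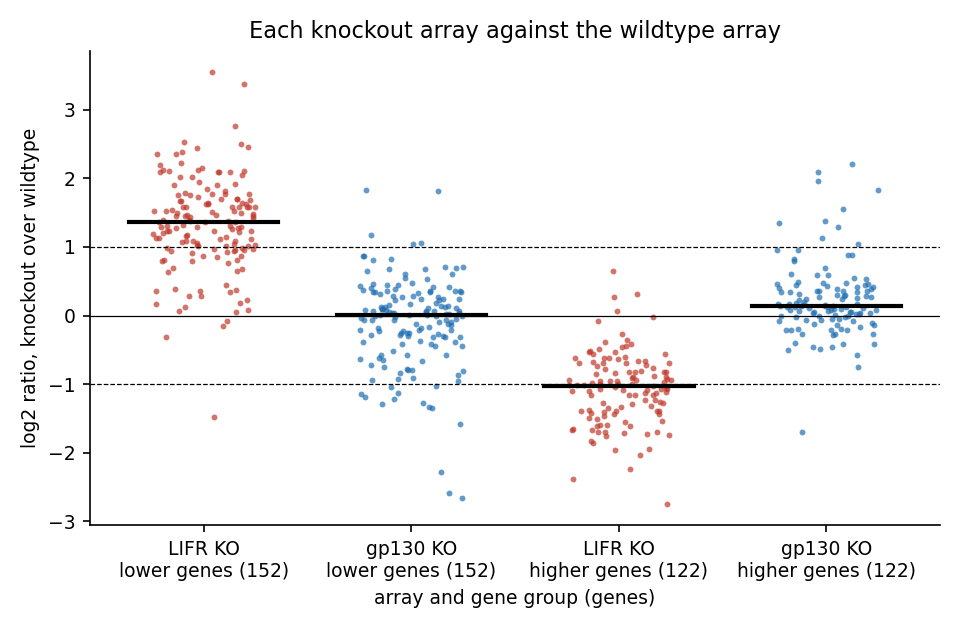
Log2 ratio of each knockout array over the wildtype array (vertical) for the 152 genes lower and the 122 genes higher on the gp130 KO than on the LIFR KO array that were measured on wildtype. Points are genes, black bars medians and dashed lines 2-fold, and the LIFR KO points (red) lie at medians of 1.36 and -1.03 while the gp130 KO points (blue) lie around 0.

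Genes with several probes show how far single probes can be relied on. Over 3215 genes with at least 2 measured probes the log2 ratios of a gene's probes spanned a median of 0.13. Of 23 such lower genes 17 had every probe below 0 and 6 had every probe at least 2-fold lower, and of 17 such higher genes 14 had every probe above 0 and 8 every probe at least 2-fold higher. Most genes named here had 1 probe.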

How the data were processed

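Per the labels, Trizol-extracted total RNA was Cy3-labelled and hybridised to single-colour arrays, 1 per genotype. The deposited intensity is the scanner software's background-subtracted processed signal, per the file headers (Feature Extraction 11.0.1.1, protocol GE1_1100_Jul11, design 026655 on mm9), and 9.1 is the Feature Extraction version in the submitters' processing notes. Deposited flags of 0 or 1, per the file headers, mark spots well above background, outliers (97, 222 and 138 on the wildtype, LIFR KO and gp130 KO arrays, left out) and saturation (0). The authors' deposited series matrix holds log2 values with the same median, 5.38, in each column. Across probes their correlation with the processed signal on that scale was r = 0.996, 0.999 and 0.995, so the scale is known and the centring method is not.

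Signals were divided by each array's 75th percentile over non-control spots (664, 750 and 652) and spots of a probe averaged. Spots whose local background exceeded 2 times the array median were left out. Accessions named 27234 of 39429 probes (69.1%) through RefSeq's GRCm38.p6 gene table, and each gene was read from its brightest probe. No array coordinates are given, since that build differs from the design's. Genes at 2-fold or more were counted, with no test. The 42 gene lists, the gene families and the compared arrays were chosen with earlier results of these data known.

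Genes were named by rule: the 12 largest ratios each way also past 2-fold with normexp and in the authors' table, without clone or predicted names, the 4 largest bounds each way, up to 5 members of a list past 2-fold, the 2 brightest of described lists with fewer, Lifr, Il6st and the genes opposite to wildtype. Other genes of a list are quoted as examples of it, and genes said to be picked after their values were seen fall outside the rule. Alternatives were median scaling, quantile normalization, normexp (limma 3.58.1 in R 4.3.3, offset 50), no filter on dim probes, a raw signal of at least 50, stray signal kept or limited at 1.5, the mean of a gene's probes, the authors' table, and thresholds of 1.5- and 3-fold. Normexp had been planned on mean spot signals and was run on the median spot signals that the files hold. The calculation was tested on simulated data. Python 3.11.15, numpy 2.4.6 and pandas 2.3.3 were used. Some results are not reported here.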

Additional observations from a re-analysis of the deposited data

Results flagged for a closer look

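In 3 genes the knockouts lay more than 2-fold to opposite sides of wildtype in the main values. No other gene measured on all 3 arrays did, and with 1 array each the difference was not tested. Tenm1 had 102 on the wildtype, 274 on the LIFR KO and 20.9 on the gp130 KO array, a log2 ratio of -3.71 between the knockouts, 1.43 for LIFR KO and -2.29 for gp130 KO over wildtype. Id1 had 3799, 7906 and 1729, a log2 ratio of -2.19, with 1.06 and -1.14 over wildtype. Nol4l had 79.8, 176 and 38.6, a log2 ratio of -2.19, with 1.14 and -1.05 over wildtype, and -0.99 between the knockouts with normexp. With normexp the ratio between the knockouts was -1.77 for Tenm1 and -2.09 for Id1. The normexp ratios of Tenm1 and Nol4l are too small for the knockouts to lie 2-fold to both sides of wildtype. Tenm1 and Nol4l are dim on the gp130 KO array and both knockout ratios share the wildtype array.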

How the results depend on the processing

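The counts of genes at least 2-fold higher and lower on the gp130 KO array, 123 and 162, were 34 and 76 with normexp, 72 and 107 with a raw signal of at least 50, and 975 and 523 with no filter on dim probes. They were 592 and 508 at 1.5-fold and 19 and 42 at 3-fold. Higher genes made up 43.2% of the genes past 2-fold in the main setting, 30.9% with normexp and 65.1% with no filter. The other 6 settings gave 98 to 123 higher and 150 to 187 lower genes. Median scaling shifts every ratio by the median of all genes, 0.05. Of 64 named genes past 2-fold, all kept their direction wherever they were measured, and 43 stayed past 2-fold with normexp, the lowest number of any setting. These include the 24 largest ratios, which were chosen as past 2-fold with normexp and in the authors' table, so 43 of 64 overstates how far the calls hold. Of all genes past 2-fold, 34 of the 123 higher and 76 of the 162 lower stayed so with normexp. A list's median moved beyond the spot scatter in 8 of 378 recalculations, and none turned to the other side of 0 beyond that scatter. The spot scatter serves there as a yardstick and does not measure the spread of a list's median. Dim signal limits 61 of the 123 higher and 64 of the 162 lower genes, which were under 100 on the array where they were lower. No leave-one-out setting could be run with 1 array per group. No paired analysis was possible because each group has 1 array.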
